A study of Homo sapiens with 3 samples.

Results

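The genes described here encode 42 nuclear-encoded factors that copy, transcribe, process and translate the mitochondrial genome. They were chosen by name from their known function, with earlier results of these data known, and all 42 have a row among the 17595 genes of the count table. RNA 5′ ends were counted in 3 libraries of HEK293, a human line derived from embryonic kidney by transformation with adenovirus type 5 DNA. Per the labels, the cells grew in DMEM with glutamine and 10% fetal calf serum. For each library 1000 cells were lysed together with ERCC control RNA (20000 molecules per cell), and a share equal to 100 cells went through 18 cycles of PCR. The series has 1 group and no treatment, so genes are compared inside each library, and each library with the other two. The libraries are called 20, 21 and 23 after the index in their column headings, since the labels do not say which column is which replicate.

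The human mitochondrial genome is a small circle that encodes subunits of the respiratory chain together with the ribosomal and transfer RNAs needed to translate them. Every protein that replicates, transcribes or translates it is made from nuclear genes and imported. Long transcripts of both strands are cut at the transfer RNAs, then polyadenylated, modified and loaded onto a dedicated ribosome.

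Levels are counts per 1000000 endogenous counts (CPM), given as mean ± SD over the 3 libraries. Endogenous counts were 1475769, 1330877 and 1545594 in libraries 20, 21 and 23, so that 1 count equals 0.647 to 0.751 CPM. Each library differed from each other one beyond counting noise (chi-square per gene of 1.17 to 1.99), and the 3 were counted as separate samples. Nothing in the labels says whether they came from separate cultures, so the spread between them may be technical. Of the markers checked, all 5 of those often reported in HEK293 had counts, led by VIM at 340.1 CPM. Of 8 markers of differentiated kidney epithelium, 2 were listed, of which LRP2 had 9.36 CPM and NPHS1 had 1 count in all. Of 6 blood markers 1 was listed (HBA1) and of 5 fibroblast markers 2 (COL1A1 and LUM), each below 4 CPM.

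The RefSeq promoter windows (GRCh38.p14) of 6 factors are shown because they belong to the core of mitochondrial transcription and to the most counted genes of RNA stability and translation. Each sequence is the 150 bases that end just before the annotated start, 5′ to 3′ on the strand of the gene. Capitals mark a match to the letters of the NRF1 motif (gcgcangcg) or of the ETS motif (ccggaag) on either strand. NRF1 and the ETS factor GABP, also called NRF2, are known activators of nuclear genes for mitochondrial proteins. The windows lie at chr10:58385260-58385409 (plus strand) for TFAM, chr19:633538-633687 (minus) for POLRMT, chr6:155314485-155314634 (minus) for TFB1M, chr1:246566262-246566411 (minus) for TFB2M, chr14:77707953-77708102 (plus) for SLIRP and chr16:28846349-28846498 (minus) for TUFM.
TFAM: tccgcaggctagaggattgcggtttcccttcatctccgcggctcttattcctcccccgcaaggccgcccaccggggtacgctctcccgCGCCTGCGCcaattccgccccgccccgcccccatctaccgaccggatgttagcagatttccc
POLRMT: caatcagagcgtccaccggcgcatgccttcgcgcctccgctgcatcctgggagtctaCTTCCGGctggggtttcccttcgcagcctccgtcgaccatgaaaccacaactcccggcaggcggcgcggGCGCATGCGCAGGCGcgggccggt
TFB1M: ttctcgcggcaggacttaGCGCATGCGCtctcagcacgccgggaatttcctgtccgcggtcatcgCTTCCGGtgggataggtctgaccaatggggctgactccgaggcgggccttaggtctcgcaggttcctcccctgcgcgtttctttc
TFB2M: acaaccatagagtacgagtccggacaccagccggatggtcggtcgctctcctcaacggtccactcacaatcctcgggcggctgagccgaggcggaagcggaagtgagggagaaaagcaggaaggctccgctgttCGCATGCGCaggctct
SLIRP: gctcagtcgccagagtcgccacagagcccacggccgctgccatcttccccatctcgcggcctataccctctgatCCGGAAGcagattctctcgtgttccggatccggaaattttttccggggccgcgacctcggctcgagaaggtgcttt
TUFM: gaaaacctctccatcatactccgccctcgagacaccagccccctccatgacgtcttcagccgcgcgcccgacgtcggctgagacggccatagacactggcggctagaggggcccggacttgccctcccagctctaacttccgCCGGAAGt
The TFAM and TFB2M windows hold an NRF1 match, the POLRMT and TFB1M windows hold matches to both motifs, and SLIRP and TUFM hold an ETS match. In POLRMT and TFB1M overlapping NRF1 matches form 1 block of capitals.

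Over whole windows of 300 bases (250 before the start and 50 from it), 37 of the 42 factors had an entry. TOP1MT, FASTKD5, TRIT1, PUS1 and MTO1 had none. The ETS letters were present in 14 of the 37 factors (37.8%), in 12.2% of all 27305 genes with a window and in 26.2% of the 6016 of those genes that averaged at least 10 CPM. The NRF1 letters were present in 8 of 37 (21.6%), against 9.02% of all genes and 20.8% of those of at least 10 CPM, so the share among the factors lay near that of other genes of this level. The 8 were TFAM, POLRMT, TFB1M, TFB2M, POLG2, MTPAP, MTRF1L and PTCD1, which include all genes of the transcription role except TEFM. With 1 further base (C) at the end of the motif, the form searched first, TFB2M, MTPAP and MTRF1L have no match and 5 factors remained (6.98% of all genes and 16.5% of those of at least 10 CPM). NRF1 or ETS letters were present in 18 of 37 factors (48.6%), in 19.2% of all genes and in 41.7% of those of at least 10 CPM. POLRMT, TFB1M, POLG2 and MTRF1L held both motifs (4 of 37, against 1.99% of all genes). The share with both was not computed for genes of at least 10 CPM. Each motif alone was more frequent among those genes than among all genes, so 1.99% is not a background of like level. The YY1 letters (aagatggcg) were found in SLIRP, FASTK, PTCD3 and SSBP1 (10.8%), in 2.14% of all genes and in 6.40% of those of at least 10 CPM. Before the start alone they were found in 1 factor and in 0.784% of all genes. The E-box letters (cacgtg) were in 0 of 37 windows, in 8.77% of all genes and in 14% of those of at least 10 CPM. Factors with the NRF1 letters had a median level of 26.8 CPM (8.51 to 156) and the other 29 had 60.9. Factors with the ETS letters had a median of 53.2 (9.60 to 1269.7) and those without had 56.3. Motifs were searched on both strands, and a match is a description of letters and not of binding.

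The 42 factors took 0.466% ± 0.0027 of endogenous counts (SD, n = 3 libraries), and a pair of small RNA-binding and DNA-binding proteins made up much of that. SSBP1 and SLIRP together held 47.8% ± 0.24 of the counts of the set. All 42 factors had a count in every library, against 72.6% of the listed genes. Of the 42, 39 averaged at least 10 CPM, against 44.6% of all listed genes, and 9 averaged at least 100 CPM, against 9.91%. The median factor stood at 46.8 CPM and the median listed gene at 7.16 CPM, and all 42 lay above the latter. Among genes of at least 10 CPM the median was 34.7 CPM. Scaled to the spiked RNA, the set corresponded to 2438 ± 111 molecules per cell out of 523506 ± 26798, and each factor to at least 4.32 molecules per cell on average. That scale assumes that cellular RNA is captured as well as the spikes, and in a lysate of many cells a level per cell cannot be told apart from the share of cells that hold the RNA.

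**Figure D1:**
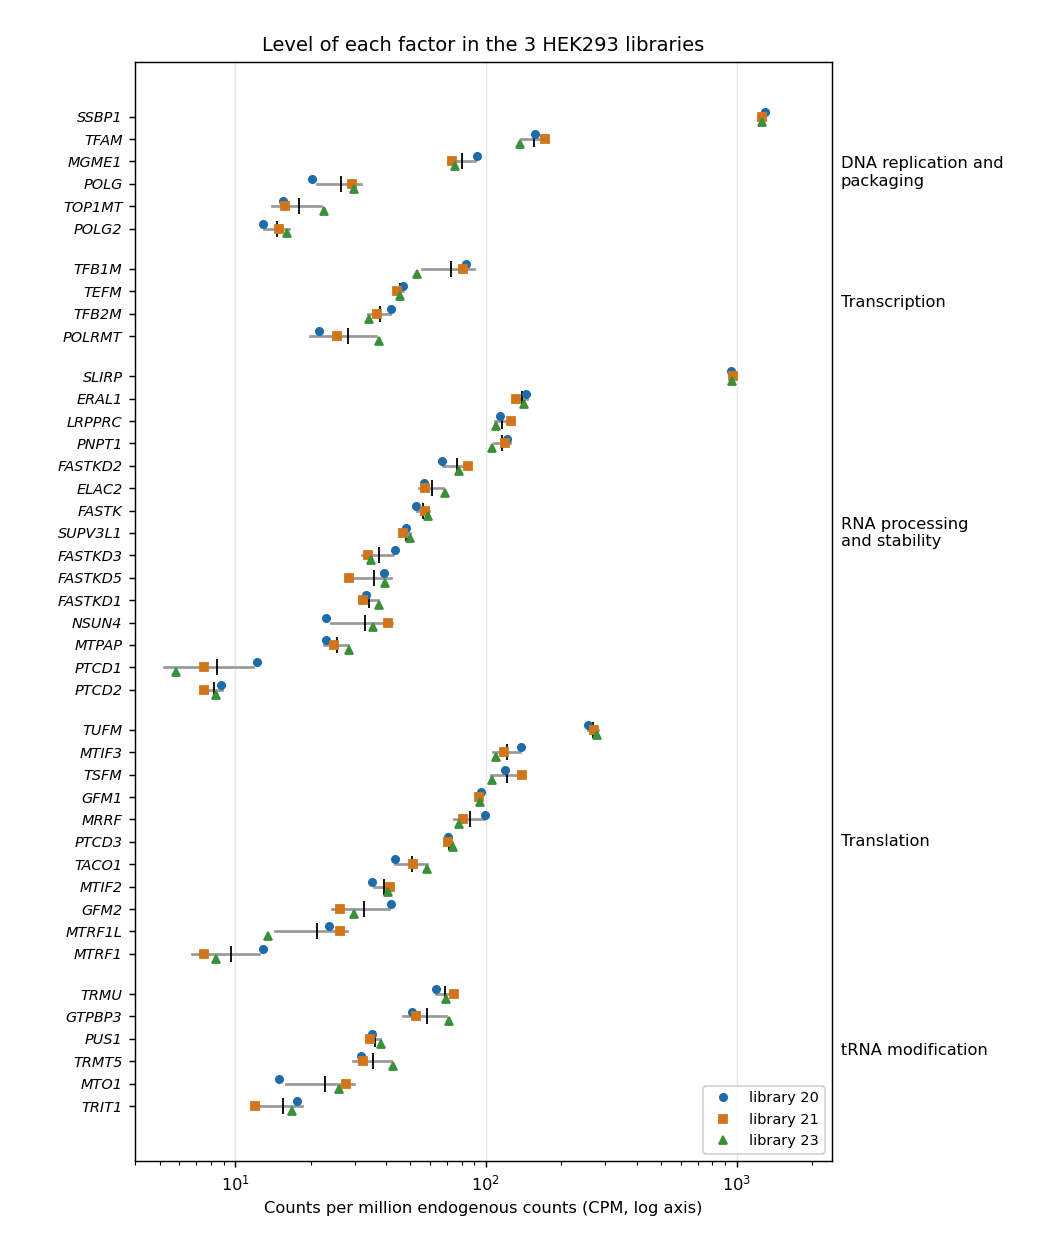
Level of the 42 factors in CPM (log axis), grouped by role, with 1 symbol per library, a vertical tick for the mean and a grey bar for ±1 SD (n = 3 libraries). SSBP1 at 1269.7 CPM and SLIRP at 958 CPM stand apart from all others, and PTCD2, PTCD1 and MTRF1 lie below 10 CPM.

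**Figure D2:**
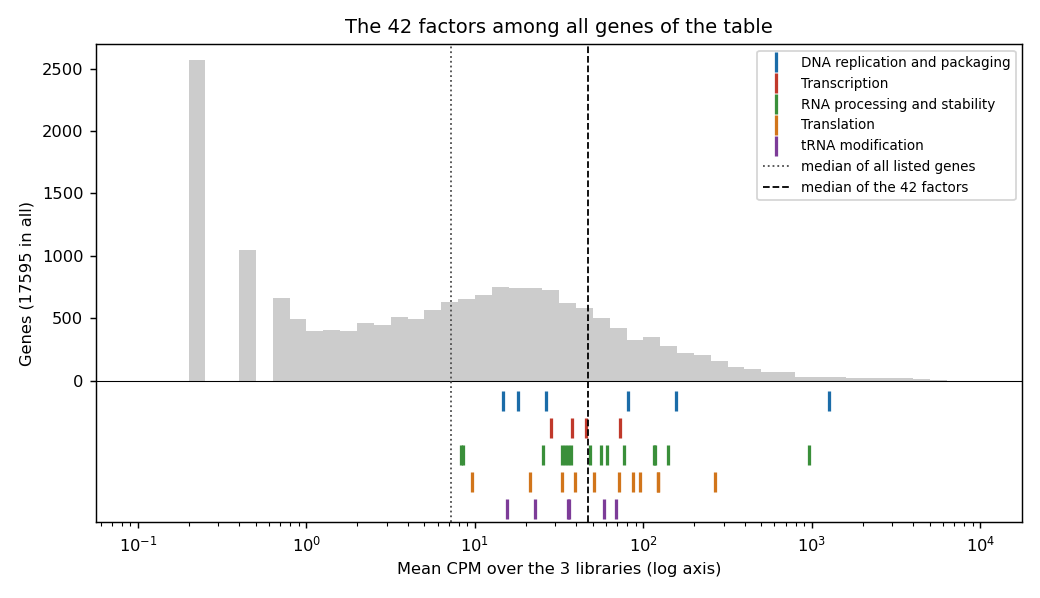
Histogram of the mean CPM of all 17595 listed genes (log axis) with the 42 factors as ticks below it, 1 row per role. The dashed line is the median of the factors (46.8 CPM) and the dotted line that of all listed genes (7.16 CPM); every tick lies to the right of the dotted line.

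Among the factors of DNA replication and packaging, the single-strand binding protein was far above the polymerase. SSBP1, which coats the displaced strand during replication, had 1293, 1257 and 1259 CPM in libraries 20, 21 and 23 (1269.7 ± 20.1 CPM). It ranked 127th among all listed genes and held 81.1% ± 0.68 of the counts of the 6 replication genes. TFAM, the HMG-box protein that packages the genome and helps start its transcription, had 157, 173 and 137 CPM (156 ± 17.9 CPM). MGME1, the exonuclease that trims replication ends, had 92.2, 73.6 and 75.7 CPM (80.5 ± 10.1 CPM). The DNA polymerase itself was low. POLG, the catalytic subunit, had 20.3, 29.3 and 29.8 CPM (26.5 ± 5.32 CPM), and POLG2, its processivity subunit, had 12.9, 15.0 and 16.2 CPM (14.7 ± 1.68 CPM). The ranges of POLG and POLG2 did not overlap. TOP1MT, the topoisomerase of mitochondria, lay between them with 15.6, 15.8 and 22.6 CPM (18.0 ± 4.02 CPM).

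Within a library SSBP1 exceeded POLG by a log2 ratio of 5.59 ± 0.33 (SD, n = 3), a 48.1-fold excess in counts, higher in 3 of 3 libraries. POLG2 was below POLG by a log2 ratio of -0.82 ± 0.16, lower in 3 of 3 libraries. The 95% counting interval of the pooled counts ran from -1.31 to -0.39 (exact Clopper-Pearson). The ratios are of 5′ tag counts and were not divided by length, and whether the counts are molecules or reads is not given in the sources used here. Level and annotated transcript length had a Spearman rho of -0.30 across the 42 factors, which share libraries and are not independent, and of -0.36 across 7253 coding genes of at least 10 CPM. Whether capture depends on length was not tested. SSBP1 and SLIRP have the shortest annotated transcripts of the set, 989 and 865 bases against a median of 2727 bases. With 5′ ends counted, a longer transcript need not give more counts. Ratios divided by length are therefore a check here and not corrected levels, and the length used is that of the longest annotated coding transcript. Divided so, the log2 ratio of SSBP1 to POLG was 7.77 and that of POLG2 to POLG turned to 0.71. The order of the polymerase subunits in counts thus did not hold on that scale.

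The 4 transcription genes lay between 28.3 and 72.5 CPM, on either side of the median factor (46.8 CPM), with 0.0184% ± 0.0012 of endogenous counts in all. TFB1M, a methyltransferase of the small ribosomal RNA related to the initiation factor, had 83.3, 81.1 and 53.1 CPM (72.5 ± 16.9 CPM). TFB2M, the initiation factor that opens the promoter, had 42.0, 36.8 and 34.3 CPM (37.7 ± 3.94 CPM). The ranges of these paralogs did not overlap, and TFB2M was below TFB1M by a log2 ratio of -0.91 ± 0.26 in counts. TEFM, the elongation factor, had 46.8, 44.3 and 45.3 CPM (45.5 ± 1.22 CPM). POLRMT, the single-subunit RNA polymerase, was the least counted of the 4 with 21.7, 25.5 and 37.5 CPM (28.3 ± 8.26 CPM). Its highest library overlapped the range of TFB2M but not that of TEFM. In counts TFAM exceeded POLRMT by a log2 ratio of 2.48 ± 0.54 and TFB2M by 2.03 ± 0.17, and TEFM exceeded POLRMT by 0.72 ± 0.42, each in 3 of 3 libraries. Divided by length, TFAM over TFB2M was 0.48, because the longest annotated TFAM transcript has 5414 bases and that of TFB2M 1848.

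The 15 genes of RNA processing and stability took the largest share of the 5 roles, 0.175% ± 0.0012 of endogenous counts, of which SLIRP held 54.6% ± 0.26. SLIRP and LRPPRC form a complex that stabilises mitochondrial mRNAs. SLIRP had 953, 966 and 956 CPM (958 ± 7.03 CPM). Its SD of 0.73% of the mean lay below the 2.69% given by counting error, so an SD over 3 libraries can understate the error. LRPPRC had 114, 125 and 109.99 CPM (116 ± 8.07 CPM). The small partner thus exceeded the large one in counts by a log2 ratio of 3.04 ± 0.090, 8.22-fold, and by 5.91 per kilobase of transcript. ERAL1, a chaperone of the small ribosomal RNA, had 144, 131 and 142 CPM (139 ± 6.91 CPM), and NSUN4, a methyltransferase of the same RNA, had 23.0, 40.6 and 35.6 CPM (33.1 ± 9.04 CPM). PNPT1, the exonuclease of mitochondrial RNA decay, had 122, 119 and 106 CPM (116 ± 8.53 CPM). Its helicase partner SUPV3L1 had 48.1, 46.6 and 49.8 CPM (48.2 ± 1.62 CPM), and PNPT1 exceeded it by a log2 ratio of 1.26 ± 0.15 in counts and 0.43 per kilobase. ELAC2, which cuts precursors at the 3′ end of transfer RNAs, had 60.9 ± 6.68 CPM, and MTPAP, the poly(A) polymerase, had 25.4 ± 2.77 CPM.

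The FASTK family are RNA-binding proteins that act on particular mitochondrial transcripts, and its members among the 42 factors ran from 34.3 to 76.8 CPM. TBRG4, also called FASTKD4, belongs to the family but not to the 42 and had 67.8, 88.7 and 77.0 CPM, a range that overlaps that of FASTKD2. FASTKD2, which binds the large ribosomal RNA, had 67.1, 84.9 and 78.3 CPM (76.8 ± 9.01 CPM), and FASTK followed with 52.9, 57.1 and 58.9 CPM (56.3 ± 3.10 CPM). Below them FASTKD3 (37.4 ± 5.22 CPM), FASTKD5 (35.8 ± 6.25 CPM) and FASTKD1 (34.3 ± 2.79 CPM) had overlapping ranges. FASTKD2 exceeded FASTKD1 by a log2 ratio of 1.15 ± 0.21, in 3 of 3 libraries. FASTKD5 shares its strand and place with UBOX5 in GENCODE 29, so its counts are uncertain. Of the pentatricopeptide proteins, helical-repeat proteins that bind RNA and that include LRPPRC and PTCD3, PTCD1 and PTCD2 were the least counted of the 42 factors. PTCD1 had 12.2, 7.51 and 5.82 CPM (8.51 ± 3.30 CPM) and PTCD2 had 8.81, 7.51 and 8.41 CPM (8.24 ± 0.66 CPM), from 37 and 36 counts in all. A readthrough gene of ATP5MF overlaps PTCD1, so its counts are also uncertain.

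The 11 translation genes took 0.0917% ± 0.0023 of endogenous counts, and the elongation factor that delivers aminoacyl-tRNA led them. TUFM had 255, 270.5 and 278 CPM (268 ± 11.9 CPM) and its exchange factor TSFM had 119, 139 and 106 CPM (121 ± 16.6 CPM). Their ranges did not overlap, and TUFM exceeded TSFM by a log2 ratio of 1.15 ± 0.22. GFM1, the elongation factor that moves the ribosome along the mRNA, had 95.5, 93.9 and 95.1 CPM (94.9 ± 0.84 CPM). Its SD of 0.88% of the mean lay below the 8.54% given by counting error. TUFM exceeded GFM1 by a log2 ratio of 1.49 ± 0.071, with a 95% counting interval of 1.33 to 1.66. The GFM1 paralog GFM2, which acts with the recycling factor MRRF to split the ribosome, had 42.0, 26.3 and 29.8 CPM (32.7 ± 8.26 CPM). GFM1 exceeded GFM2 by a log2 ratio of 1.56 ± 0.34. MRRF had 99.6, 81.1 and 78.3 CPM (86.3 ± 11.6 CPM).

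Of the initiation factors, MTIF3 had 138, 118 and 109 CPM (122 ± 14.8 CPM) and MTIF2, which places the first tRNA, had 35.2, 41.3 and 40.8 CPM (39.1 ± 3.36 CPM). MTIF2 was below MTIF3 by a log2 ratio of -1.63 ± 0.29, in 3 of 3 libraries. The release factors among the 42 factors were low. MTRF1L had 23.7, 26.3 and 13.6 CPM (21.2 ± 6.72 CPM) and MTRF1 had 12.9, 7.51 and 8.41 CPM (9.60 ± 2.87 CPM). Their ranges did not overlap, but the ratio was imprecise, with a log2 value of 1.10 ± 0.58 from 91 and 42 counts. PTCD3, which is also a protein of the small mitochondrial ribosomal subunit, had 70.5, 70.6 and 73.8 CPM (71.6 ± 1.85 CPM), and exceeded PTCD1 by a log2 ratio of 3.09 ± 0.55. TACO1, an activator of the translation of MT-CO1, had 50.9 ± 7.43 CPM.

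The 6 genes of tRNA modification took 0.0237% ± 0.0025 of endogenous counts, all of them between 15.5 and 68.9 CPM. TRMU, which adds sulfur to the wobble uridine, had 63.0, 74.4 and 69.2 CPM (68.9 ± 5.69 CPM). GTPBP3 and MTO1 form the complex that modifies the same base at another position. GTPBP3 had 50.8, 52.6 and 71.2 CPM (58.2 ± 11.3 CPM), and MTO1 had 14.9, 27.8 and 25.9 CPM (22.9 ± 6.96 CPM). Their ranges did not overlap, and MTO1 was below GTPBP3 by a log2 ratio of -1.37 ± 0.42 in counts. PUS1, a pseudouridine synthase, had 36.0 ± 1.92 CPM, TRMT5, a methyltransferase of the base next to the anticodon, had 35.6 ± 6.14 CPM, and TRIT1, which adds an isopentenyl group beside the anticodon, had 15.5 ± 3.03 CPM.

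**Figure D3:**
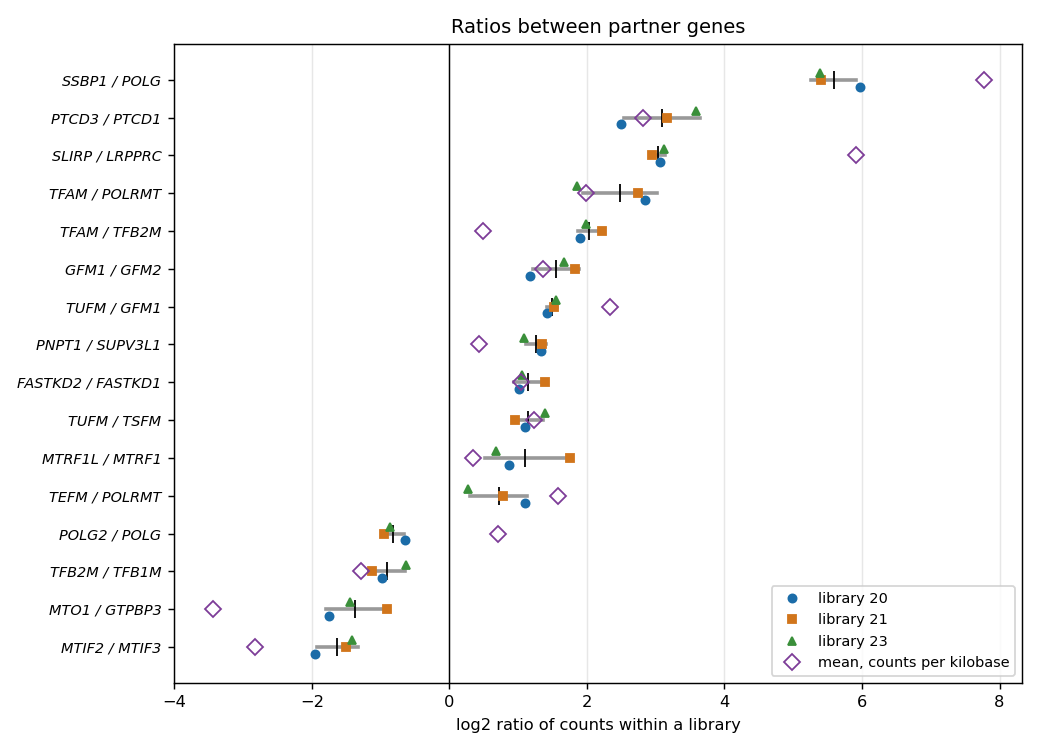
Log2 ratio of counts between 16 pairs of partner genes, with 1 symbol per library, a tick for the mean, a grey bar for ±1 SD (n = 3) and an open diamond for the mean after division by annotated transcript length. In each of the 16 pairs the 3 libraries lie on the same side of 0, and for POLG2 over POLG the diamond (0.71) lies on the other side.

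In each of the 16 gene pairs the ratio of counts had the same sign in all 3 libraries. Divided by length, this held for 15 of the 16, with MTRF1L over MTRF1 the exception. No test between genes was run, and an exact sign-flip test on 3 libraries cannot go below p = 0.25. With all 42 factors in order of level, the ranges over the libraries overlapped for 36 of the 41 neighbouring pairs. The ranges were apart below SSBP1, below SLIRP, below TUFM, below PNPT1 and below TEFM. The order of the remaining neighbours is therefore not set beyond the spread between libraries. Ranges that are apart do not set an order by themselves, since 3 libraries can spread less than counting error. TEFM had an SD of 2.69% of its mean against 12.3% from counting error, with 198 pooled counts beside 170 for MTIF2.

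The rest of the pathway gives these levels a scale. The 13 protein-coding genes of the mitochondrial genome took 3.48% ± 0.16 of endogenous counts, 7.47 ± 0.38 times the counts of the 42 factors together. The 74 listed genes for mitochondrial ribosomal proteins took 3.91 ± 0.061 times the counts of the factors. Over the list of 76, with MRPL30 and MRPS17 set to 0 because they have no row, the median was 206 ± 2.86 CPM. TUFM lay above 45 of those 74 genes, TSFM and MTIF3 above 12 each, GFM1 above 7, and MTIF2, GFM2, TACO1 and MTRF1L above 2 each. Among further genes of maintenance, all 14 were listed and 12 averaged at least 10 CPM, led by SUCLG1 (222 ± 7.02 CPM), DGUOK (213 ± 18.5 CPM) and MPV17 (129 ± 5.34 CPM), which act in or support the mitochondrial nucleotide supply. Of 13 further RNA processing genes 12 were listed, all of at least 10 CPM, led by TRMT10C (336 ± 32.7 CPM) and HSD17B10 (232 ± 5.89 CPM), subunits of the enzyme that cuts the 5′ end of transfer RNAs, and by REXO2 (160.6 ± 13.7 CPM). PRORP, the third subunit, has no row under that name or the older name tried. All 15 further translation genes averaged at least 10 CPM, led by MALSU1 (145.6 ± 7.96 CPM), OXA1L (125 ± 9.69 CPM) and MRPL58 under its older name ICT1 (106 ± 6.42 CPM). All 13 further genes of tRNA and rRNA modification did so too, led by RPUSD3 at 143 ± 19.0 CPM.

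None of the 42 factors differed between libraries past the threshold. Each gene was compared in each of the 3 pairs of libraries with a 2-sided exact binomial test, adjusted by the Benjamini-Hochberg method over all genes and pairs at 0.05. Of 11424 genes tested, 64 were called (0.560%), and 0 of the 42 factors. A chi-square test over the 3 libraries also called 0 of the 42. At an unadjusted exact p under 0.05 in any pair, 10 of the 42 factors passed (23.8%), against 15.9% of all genes tested. A gene needed only 10 pooled counts to be tested and the least counted factor had 36, so these shares are of unlike depth. The lowest p among the factors belonged to TFB1M (exact binomial p = 0.0016, adjusted p = 0.22), which was lower in library 23 than in both others. The other 9 were NSUN4, TSFM, POLRMT, MTRF1L, TFAM, MTO1, GFM2, MTIF3 and GTPBP3, with unadjusted exact binomial p of 0.010 to 0.027 and adjusted p of 0.48 to 0.62. POLRMT was highest in library 23 and TFAM lowest there. Among the 34 factors of at least 100 pooled counts the SD was 0.99 times that of counting error (median), beside 0.97 for all 5204 such genes, and 0.83 is the median that counting error alone gives for 3 libraries. The highest library was under 1.5 times the lowest in 34 of the 42, and PTCD1, at 2.09 times, was the only factor of at least 2 times. These p-values cover counting error only, and how large a difference the test can detect was not tested for factors of fewer than 100 pooled counts.

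Most of the 13 protein-coding genes of the mitochondrial genome were called between the same libraries. Of the 13, 10 were called (MT-ND5, MT-CO1 and MT-ND6 were not), and they were among 11 genes of the mitochondrial genome in the 64. MT-CO3, a subunit of cytochrome c oxidase, had 1479, 1682 and 2375 CPM in libraries 20, 21 and 23, and the complex I subunit MT-ND2 had 1029, 1195 and 1729 CPM (exact binomial adjusted p = 1.0e-66 and 6.9e-57 for the pair that differed most). MT-ND4L went the other way with 3434, 3466 and 2806 CPM (exact binomial adjusted p = 5.1e-20), while MT-ND4 had 2588, 2947 and 3556 CPM. These are counts per gene and not per mRNA, and whether they follow the level of any mRNA was not tested. Library 23 was above library 20 for 10 of the 13 genes, with a median log2 ratio of 0.18, and for 22 of the 42 factors, with a median of 0.01. Whether any factor bears on these differences was not tested. The calls also depend on depth. MT-CO2, with 8544 to 9373 counts per library, was called at 5959, 6420 and 6064 CPM. MT-ND6, with 36, 30 and 52 counts, was not called. POLRMT was not called either, with 124 counts in all and a highest library of 1.73 times the lowest. Calls here and among the factors therefore do not compare how stable the levels were.

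**Figure D4:**
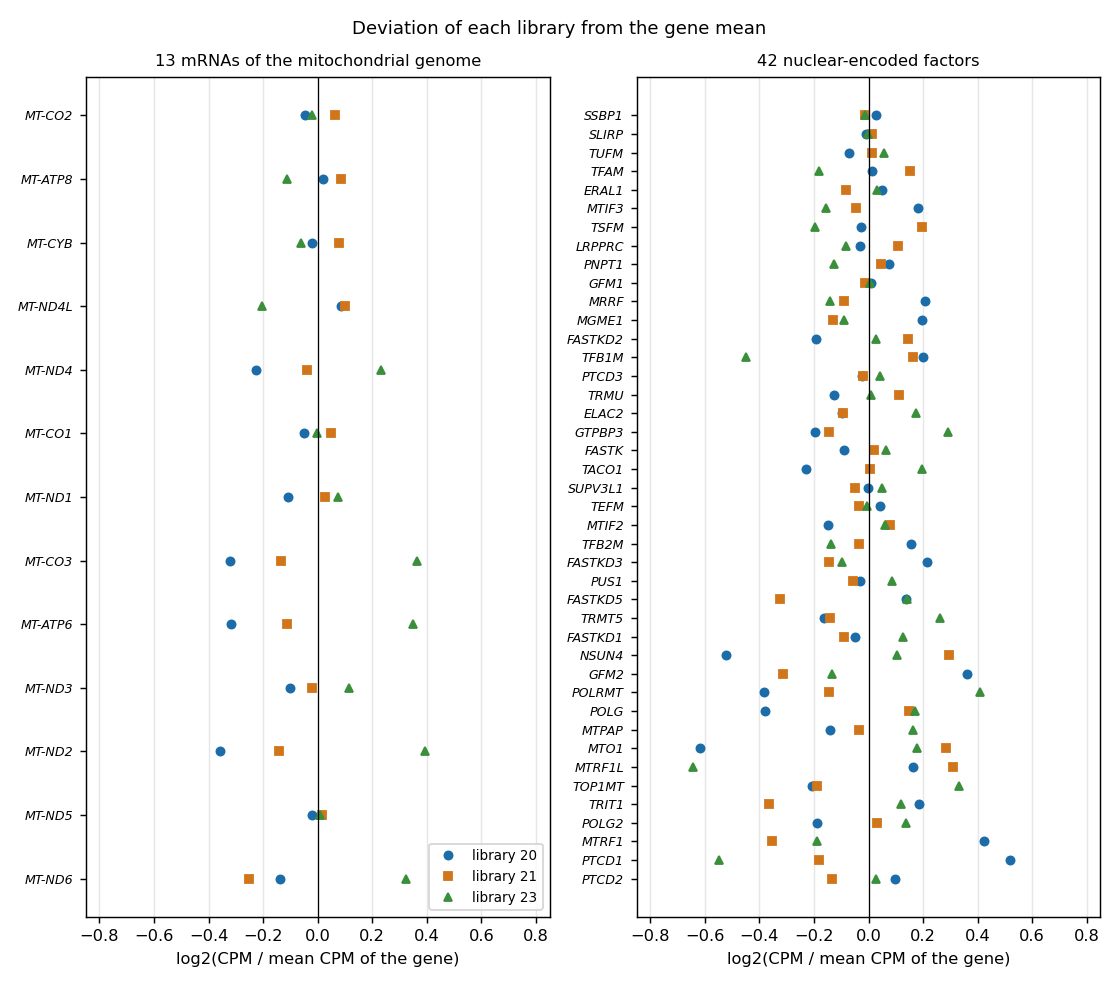
Deviation of each library from the mean of the gene, as log2 of CPM over mean CPM. The left panel, titled mRNAs, holds the 13 protein-coding genes of the mitochondrial genome and the right panel the 42 factors. Each is ordered by level with the highest at the top. MT-CO3, MT-ATP6, MT-ND2 and MT-ND4 are highest in library 23, whereas the symbols of the factors spread more towards the bottom of the panel, where counts are low, with library 23 above library 20 in 22 of 42.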

How the data were processed

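The authors deposited 1 table of raw, unnormalized counts, with a row per gene and a column per library. Per the submitters' processing notes, cutadapt 1.2.1, STAR 2.4.0a and the build hg19 (GRCh37) were used. No source used here gives the counting tool, annotation, use of strand or collapsing of molecular identifiers. Counts may thus be molecules or reads, and genes that overlap cannot be told apart (26 of the 42 factors overlap a gene on the other strand and 16 one on the same strand in GENCODE 29, SSBP1 and SLIRP among both). Columns carry an index and no replicate number, and were used as unnumbered replicates.

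CPM were computed over endogenous counts, without the 80 listed spikes (3.49% to 3.85% of all counts). Molecules per cell are counts over summed spike counts times 20000. Gene ratios are log2 with a pseudocount of 0.5. The test between libraries used genes of at least 10 pooled counts. On simulated Poisson counts with 200 genes of at least 100 pooled counts changed in 1 library, it recovered 85.5% at 2-fold and 42.5% at 1.5-fold, with 28 and 4 unchanged genes called, and called 0 with no change. Transcript length is that of the longest coding transcript in GENCODE 29, matched by name. Alternatives covered the minimum count, the scaling (edgeR's TMM, DESeq2 size factors, spikes), the test, the pseudocount, length and leaving out each library.

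The factors, roles, gene pairs, pathway lists, motifs and markers were chosen with earlier results of these data known. All 42 factors are named; of other lists up to 3 leading genes, unlisted members and called genes of the mitochondrial genome. MT-ND5, MT-CO1, MT-ND6, TBRG4, NRF1, ESRRA, GABPA, PPARGC1A and PPARGC1B fall outside this rule and were named after their values were seen. Tools were R 4.3.3 (edgeR 4.0.16, DESeq2 1.42.0) and Python 3.11.15 (pandas 2.3.3, scipy 1.17.1, numpy 2.4.6, matplotlib 3.10.9).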

Additional observations from a re-analysis of the deposited data

How the results depend on the processing

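No paired analysis was possible because the series has 1 group. None of the 42 factors was called between libraries under any of the 9 alternatives. Over all genes the count of 64 became 114 with DESeq2 size factors and 250 with spike counts as the scale. It became 8 to 59 when a library was left out, the lowest without library 23 (34 without library 20). Those counts come from 1 pair of libraries and the count of 64 from 3 pairs, so they are not alike. Apart from the number of pairs, the cause of these shifts was not tested. With totals that include the spikes, the median factor was 45.1 CPM and the shares were 0.449% for all factors, 0.151% for replication, 0.169% for RNA processing and 0.0884% for translation. Without the most counted gene of each set, the shares were 0.339% for all factors, 0.0295% for replication, 0.0111% for transcription, 0.0797% for RNA processing, 0.0650% for translation and 0.0168% for tRNA modification. Per kilobase of transcript, 1 mean log2 ratio of 16 reversed, POLG2 over POLG at 0.71. On that scale 15 of the 16 pairs had the same sign in all 3 libraries. By the same division the ratios moved to -1.29 for TFB2M over TFB1M, 1.58 for TEFM over POLRMT, 0.48 for TFAM over TFB2M, 7.77 for SSBP1 over POLG, 5.91 for SLIRP over LRPPRC, 0.43 for PNPT1 over SUPV3L1, -2.82 for MTIF2 over MTIF3, 2.34 for TUFM over GFM1, 0.35 for MTRF1L over MTRF1 and -3.44 for MTO1 over GTPBP3. The other 5 ratios moved by less than their SD, as did all 16 with a pseudocount of 2 and without any 1 library. Before the start alone, the YY1 letters were found in 1 factor and in 0.784% of all genes. With 1 further base in the motif, the form searched first, the NRF1 letters were found in 5 factors and the YY1 letters in 3. That YY1 form was present in 1.46% of all genes and in 4.55% of those of at least 10 CPM. The shorter form replaced the longer one after the matches of the longer one had been seen. The reason was the length of the printed letters and not a property of binding. Of the single levels, 6 of 42 moved by over 1 SD with spikes in the totals and 0 under TMM, DESeq2 size factors or a library left out. Depth limits the lowest factors, of which 8 had fewer than 100 pooled counts.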

Other observations

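Regulators of nuclear genes for mitochondrial proteins had a list median of 22.4 ± 5.11 CPM. Of 8 such genes, 7 averaged at least 10 CPM and 0 reached 100 CPM. YY1, a zinc finger factor, led with 84.7, 91.7 and 99.0 CPM in libraries 20, 21 and 23 (91.8 ± 7.15 CPM, SD, n = 3). PPRC1, a coactivator of the PGC-1 family known from dividing cells, had 44.5 ± 6.35 CPM, and GABPB1, the partner of the ETS factor GABPA, had 30.2 ± 2.12 CPM. PPARGC1A, the inducible coactivator of the same family, had 5 counts in all libraries together, and PPARGC1B, NRF1, ESRRA and GABPA lay between these levels. NRF1, a transcription factor, had 12.2, 9.02 and 12.3 CPM.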
